A study of Mus musculus with 12 samples.

Results

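The genes of translation initiation and elongation were examined in mouse liver: all genes whose symbol on the array platform starts with Eif or Eef followed by a digit, in upper or lower case. There were 60 such genes among the 17742 genes measured, read by 74 probes. A gene with several probes (11 of the 60) was represented by its brightest probe over the 12 arrays, and the other 49 genes had 1 probe each. Of the 60, 56 carry the name of a translation factor, subunit or regulator in current use, among them Eef1e1, which is not itself an elongation factor. The other 4 are the Argonaute genes Ago1, Ago2, Ago3 and Ago4, which bind small RNAs and entered only because the platform carries their older symbols Eif2c1 to Eif2c4.

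Liver RNA came from 3 groups of mice labelled 8 weeks old, with 2 liver samples per group and 2 arrays per sample. The first group, STZ+MENS, had diabetes induced with STZ (streptozotocin, a toxin of the insulin-producing beta cells) and received MENS, a treatment the labels do not spell out, from a device-driven printed circuit board (daily sessions of 1 h, 5 days a week, 6 weeks in all). The second group, STZ, had diabetes induced with STZ and no MENS, and the Control group was untreated. The labels give neither strain, sex nor dose of STZ and leave unsaid whether a sample was 1 animal, so the p-values reflect the spread among these livers alone, which may in part be technical. No group of Control mice with MENS was analysed here, so MENS was compared only within STZ mice.

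Initiation begins when eIF2, a heterotrimer, carries the initiator methionyl-tRNA to the small ribosomal subunit in a ternary complex with GTP, while eIF3 holds the pre-initiation complex together and eIF4F (the cap-binding eIF4E, the scaffold eIF4G and the helicase eIF4A) recruits the mRNA. Translation is set at 2 main control points: kinases phosphorylate the alpha subunit of eIF2 and thereby block its exchange factor eIF2B, and the eIF4E-binding proteins keep eIF4E from eIF4G until mTORC1 phosphorylates them. In elongation eEF1A delivers aminoacyl-tRNA, eEF2 translocates the ribosome, and eEF2 kinase inhibits eEF2. Insulin raises hepatic translation mainly through mTORC1 and through phosphorylation of these proteins, which an array of mRNA does not measure.

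Signals are given as log2(intensity + 50), averaged over the 2 arrays of a sample, with sample 1 before sample 2, and differences as log2 differences ± SE of the limma model (n = 2 samples per group). The deposited normalization held the array medians between 768.89 and 770.33. Hepatocyte markers (8 of 10 measured) summed to between 2028830 and 2205477 intensity units in STZ+MENS. The sums were 2230214 and 2366463 in STZ and 2532126 and 2623580 in Control, so they did not overlap between the groups. Over these markers the median log2 difference was -0.13 for STZ against Control, -0.06 for STZ+MENS against STZ and -0.23 for STZ+MENS against Control. The 2 erythroid markers measured, of 8, summed to 104836 and 9330 in the STZ+MENS samples, 32621 and 55363 in STZ and 79641 and 95699 in Control. STZ+MENS sample 2 was the lowest in this sum. Nearly all of it was Alas2 (mean intensity 62300.7, beside 613.951 for Slc4a1), and no globin gene of the list was measured. Macrophage markers (7 of 7) summed to 38089 and 61214 in STZ+MENS, 35079 and 35683 in STZ and 40480 and 34019 in Control, so STZ+MENS sample 2 was the highest. Pancreatic acinar markers (3 of 5) summed to 21628 and 24058 in STZ+MENS, 26441 and 22408 in STZ and 45571 and 45149 in Control. Control lay above both other groups in this sum, most of which was Cela1 (mean intensity 23123.5, beside 5640.8 for Cel and 2111.42 for Cpa1). The median log2 difference of these 3 markers was only -0.12 for STZ against Control and 0.06 for STZ+MENS against Control. No marker measured in the 4 lists given here had a mean intensity under 50. The part of any of them in the results below was not tested, and in bulk tissue fewer cells of a type and less RNA per cell cannot be told apart. Eef1a2, the elongation factor of muscle and neurons, was the 1 member with a mean intensity under 50. The other eEF1A gene, Eef1a1, was not among the members, nor were Eef1g, Eif1 and Eif4a3. Eef2 lay at the other end of the scale, between rank 20 and rank 117 of the 26423 probes on every array.

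No member passed the adjusted threshold of 0.05 in any comparison with limma. For STZ against Control this was 0 of 60, where 0.00564% of all genes (1 gene) passed. The same count was 0 of 60 for STZ+MENS against STZ, where 0% of all genes passed, and 0 of 60 for STZ+MENS against Control, where 0.00564% passed. Differences below are therefore described by their size, their unadjusted p and whether the samples overlapped, read against all genes. None of them is a call, and comparisons that use the same samples are given side by side.

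Between STZ and Control the members differed about as often as other genes. At an unadjusted p under 0.05 there were 9 of 60 members (15%, against 17% of all genes), 3 higher (8.48% of all genes) and 6 lower (8.49%) in STZ. Samples did not overlap for 14 members that lay above Control (24% of all genes) and 17 that lay below (28.2%), and overlapped for 29 (either kind of separation held for 52.1% of all genes). The median difference was -0.01 over the members and -0.02 over all genes. Without Control sample 1 the members' median was 0.044, and without STZ sample 1 or STZ sample 2 it was -0.035 or -0.045.

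Between STZ+MENS and STZ the median member lay lower in STZ+MENS, while the median over all genes lay slightly higher. At an unadjusted p under 0.05 there were 16 of 60 members (26.7%, against 25.4% of all genes), 6 higher (12.6% of all genes) and 10 lower (12.8%) in STZ+MENS. Samples did not overlap for 17 members above STZ (34% of all genes) and 22 below (23.9%), and overlapped for 21 (57.9% of all genes did not overlap). The median difference was -0.18 over the members and 0.06 over all genes. Without STZ+MENS sample 1 the members' median was 0.0043. Without STZ+MENS sample 2, which leaves sample 1 alone and assumes that it varies like the other groups, 10 members (16.7%) passed the adjusted threshold, beside 9.91% of all genes.

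Against Control, STZ+MENS again had more members below than above. The count at an unadjusted p under 0.05 was 17 of 60 (28.3%, against 18% of all genes), with 4 higher (8.82% of all genes) and 13 lower (9.18%). Samples did not overlap for 13 members above Control (25.6% of all genes) and 24 below (23%), and overlapped for 23 (48.6% of all genes did not overlap). The members' median was -0.15, beside 0.02 over all genes. Without STZ+MENS sample 1 the median was -0.08, and without Control sample 1 it was -0.06.

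The lower values were concentrated in 1 liver sample. STZ+MENS sample 1 had the lowest signal of the 6 samples for 27 of the 60 members (45%), against 20.7% of all genes. For STZ+MENS sample 2 this was 6 members (10%, against 11.3% of all genes). The members' median difference from the Control mean was -0.17 in STZ+MENS sample 1 and -0.08 in sample 2, beside all-gene medians of 0.03 and 0.01. The STZ+MENS samples differed from each other by over 1 for 5 of the 60 members (4.10% of all genes). These were Eif3i, Eif3e, Eif3b, Eif3l and Eif4e2, and in each of them sample 1 was the lower. In STZ 2 members differed by over 1 between samples (2.06% of all genes), Eif3i and Eif4ebp2, and in Control none did (2.38% of all genes). The share of all genes was thus also largest in STZ+MENS.

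**Figure D1:**
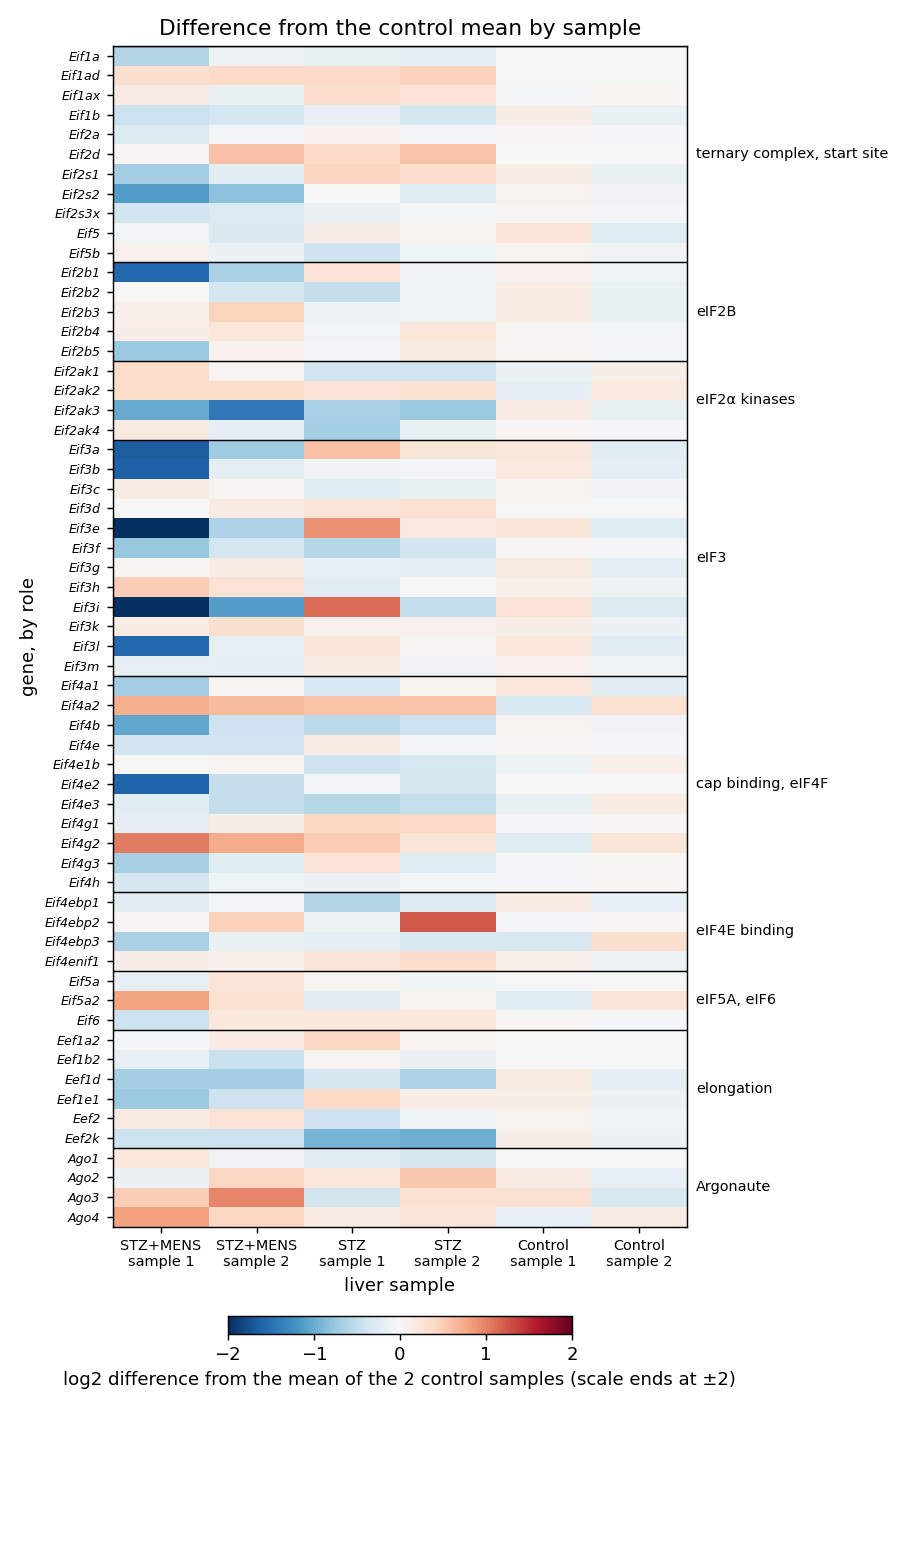
Heat map of the 60 members, grouped by role, in the 6 liver samples: colour gives the log2 difference of each sample from the mean of the 2 Control samples, with the scale ending at ±2. The column of STZ+MENS sample 1 holds the darkest blues, at Eif3i, Eif3e, Eif3a, Eif3b, Eif3l, Eif2b1 and Eif4e2.

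Promoter sequences (RefSeq, GRCm38.p6) were available for 47 of the 60 members and are shown for 6 whose signals carry the comparisons below: Eif3a and Eif2s2, lower in STZ+MENS than in STZ, Eif2ak3 and Eef2k, lower in STZ than in Control, Eif3f, below Control in STZ+MENS and in STZ, and Eif4g1, higher in STZ. Each line gives the 200 bases before the annotated start, 5′ to 3′ on the gene's strand, with capitals for an E-box (CACGTG, the same on both strands) or for CCAAT or its reverse complement ATTGG. The regions are chr19:60790694-60790893 (minus strand) for Eif3a, chr2:154892907-154893106 (minus) for Eif2s2, chr6:70844315-70844514 (plus) for Eif2ak3, chr7:120842631-120842830 (plus) for Eef2k, which has 3 promoter entries of which the first is shown, chr7:108934215-108934414 (plus) for Eif3f and chr16:20672527-20672726 (plus) for Eif4g1.
Eif3a: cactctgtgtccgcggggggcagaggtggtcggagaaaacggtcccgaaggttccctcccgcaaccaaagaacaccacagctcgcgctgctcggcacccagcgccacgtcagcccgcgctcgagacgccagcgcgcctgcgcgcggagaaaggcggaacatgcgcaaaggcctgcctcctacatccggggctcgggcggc
Eif2s2: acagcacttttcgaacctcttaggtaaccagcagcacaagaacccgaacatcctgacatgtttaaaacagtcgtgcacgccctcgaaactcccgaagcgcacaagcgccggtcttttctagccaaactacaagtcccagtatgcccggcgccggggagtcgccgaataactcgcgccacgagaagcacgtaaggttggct
Eif2ak3: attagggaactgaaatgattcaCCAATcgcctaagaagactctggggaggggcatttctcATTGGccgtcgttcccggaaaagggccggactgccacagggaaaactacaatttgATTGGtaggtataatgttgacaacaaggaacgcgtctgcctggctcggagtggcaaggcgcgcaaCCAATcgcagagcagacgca
Eef2k: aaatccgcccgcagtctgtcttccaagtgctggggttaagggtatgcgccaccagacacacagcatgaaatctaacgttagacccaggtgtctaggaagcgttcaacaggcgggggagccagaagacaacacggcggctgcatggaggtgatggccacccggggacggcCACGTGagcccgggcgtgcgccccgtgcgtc
Eif3f: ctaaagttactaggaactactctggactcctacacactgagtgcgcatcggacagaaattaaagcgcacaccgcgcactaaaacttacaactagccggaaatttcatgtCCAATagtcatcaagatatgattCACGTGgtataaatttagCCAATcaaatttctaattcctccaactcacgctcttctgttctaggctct
Eif4g1: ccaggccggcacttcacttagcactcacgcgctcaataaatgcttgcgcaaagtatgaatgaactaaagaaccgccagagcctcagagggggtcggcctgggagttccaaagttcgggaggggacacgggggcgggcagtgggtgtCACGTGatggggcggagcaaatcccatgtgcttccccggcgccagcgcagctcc
In these windows Eif2ak3 held 4 CCAAT motifs, the nearest 20 bases before the start, Eif3f held an E-box and 2 CCAAT motifs, and Eef2k and Eif4g1 held an E-box each, 31 and 54 bases before the start. Eif3a and Eif2s2 held none of these motifs.

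Over the 250 bases before the start, an E-box was found in 13 of the members' 63 promoters (20.6%), against 6.02% of all 32851 promoters in the table. These entries are not independent, as 8 member genes had several and windows of Eif5a that held an E-box overlap in part. The 11 genes with an E-box were Eef2, Eef2k, Eif1b, Eif3f, Eif3k, Eif4a1, Eif4e, Eif4g1, Eif4h, Eif5a and Eif5a2. CCAAT was found in 16 (25.4%), against 33.8% of all promoters, and TGATGCAA in 0, against 0.791%, both strands searched, with 0 overlaps between motifs in the members. For STZ+MENS against STZ the median difference was -0.09 over the 11 genes with an E-box and -0.21 over the 36 without. For STZ against Control the medians were -0.07 and 0.05, and for STZ+MENS against Control -0.21 and -0.08. The members with an E-box thus did not lie on 1 side of the others in the 3 comparisons.

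Among the factors of the ternary complex and start site selection, the subunits of eIF2 were uneven in STZ+MENS. Eif2s2, which encodes the beta subunit, had a log2 signal of 9.77 and 10.06 in STZ+MENS, 10.88 and 10.63 in STZ and 10.95 and 10.81 in Control. Both STZ+MENS samples lay below all 4 others. The difference was -0.84 ± 0.17 against STZ, a 1.79-fold lower signal (unadjusted p = 0.00258, adjusted p = 0.0680, the lowest adjusted p of any member in that comparison), and -0.97 ± 0.17 against Control (adjusted p = 0.114).

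Eif2s1, which encodes the alpha subunit that the stress kinases phosphorylate, had 9.19 and 9.67 in STZ+MENS, 10.32 and 10.24 in STZ and 10.02 and 9.77 in Control. The 3 groups did not overlap, with STZ on top. Its difference was -0.85 ± 0.20 for STZ+MENS against STZ (adjusted p = 0.0820), -0.46 ± 0.20 for STZ+MENS against Control (unadjusted p = 0.0604) and 0.38 ± 0.20 for STZ against Control (unadjusted p = 0.106). The gamma subunit gene Eif2s3x differed less, at -0.25 ± 0.14 for STZ+MENS against STZ (unadjusted p = 0.112), with signals of 14.28 and 14.38 in STZ+MENS below 14.53 and 14.63 in STZ.

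Eif1ad, an eIF1A-domain gene, was the 1 member of this role above Control at an unadjusted p under 0.05 in STZ and in STZ+MENS. Its signal was 13.36 and 13.42 in STZ+MENS, 13.42 and 13.51 in STZ and 13.05 and 13.03 in Control. The difference from Control was 0.35 ± 0.13 in STZ+MENS (adjusted p = 0.248) and 0.42 ± 0.13 in STZ (adjusted p = 0.206). Its other probe went the other way, at -0.39 in STZ+MENS and -0.12 in STZ against Control. Of the 11 members of this role, 10 had a negative difference for STZ+MENS against STZ, with a median of -0.18, and Eif5b, which joins the ribosomal subunits, was the exception at 0.24 ± 0.17. Eif5, the GTPase-activating factor of eIF2, differed by -0.27 ± 0.21 in that comparison, and Eif1a, Eif1ax, Eif1b, Eif2a and Eif2d lay between -0.32 and -0.12, none at an unadjusted p under 0.05.

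Of the 5 subunits of eIF2B, the exchange factor that recharges eIF2 with GTP, the regulatory alpha subunit gene stood apart. Eif2b1 had a log2 signal of 10.95 and 11.88 in STZ+MENS, 12.81 and 12.46 in STZ and 12.62 and 12.44 in Control. Both STZ+MENS samples were below all others, and sample 1 was lower than sample 2 by a log2 difference of -0.92. The difference was -1.22 ± 0.31 against STZ, a 2.33-fold lower signal (adjusted p = 0.0905), and -1.11 ± 0.31 against Control (adjusted p = 0.162). With STZ+MENS sample 1 left out it was -0.76 ± 0.22 against STZ (unadjusted p = 0.0139) and -0.65 ± 0.22 against Control (unadjusted p = 0.0255).

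The other eIF2B genes had no difference at an unadjusted p under 0.05 in any comparison. Eif2b5, which encodes the catalytic epsilon subunit, had 11.95 and 12.77 in STZ+MENS, 12.65 and 12.87 in STZ and 12.75 and 12.63 in Control, so that 1 STZ+MENS sample lay below the rest and the other among them. Eif2b3 differed by 0.37 ± 0.18 and Eif2b4 by 0.09 ± 0.15 for STZ+MENS against STZ. Eif2b2 differed by 0.10 ± 0.21, but its 2 arrays of STZ sample 1 were 1.44 apart.

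The 4 kinases of the eIF2 alpha subunit, each tied to another stress, did not go 1 way. Eif2ak3 encodes PERK, the kinase of the unfolded protein response in the endoplasmic reticulum. Its log2 signal was 11.79 and 11.36 in STZ+MENS, 12.16 and 12.05 in STZ and 12.94 and 12.66 in Control. The 3 groups did not overlap, in a descending order of Control, STZ and STZ+MENS. The difference from Control was -1.22 ± 0.20 in STZ+MENS (2.33-fold lower, unadjusted p = 0.000716, adjusted p = 0.111) and -0.69 ± 0.20 in STZ (unadjusted p = 0.0118, adjusted p = 0.182), and STZ+MENS differed from STZ by -0.53 ± 0.20 (unadjusted p = 0.0354). Here STZ+MENS sample 2 was the lower, with its arrays 0.78 apart, and without it the difference was -1.005 ± 0.20 from Control and -0.31 ± 0.20 from STZ (unadjusted p = 0.17).

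Eif2ak1, the heme-regulated kinase known from red cell precursors, was lowest in STZ. Its signal was 14.49 and 14.18 in STZ+MENS, 13.74 and 13.71 in STZ and 14.00 and 14.24 in Control. Both STZ samples lay below all others. STZ+MENS was higher than STZ by 0.61 ± 0.17 (adjusted p = 0.103), and STZ differed from Control by -0.39 ± 0.17 (unadjusted p = 0.0575). The summed erythroid signal given above, which was nearly all Alas2, was lower in STZ than in Control. That sum lay on either side of STZ in the STZ+MENS samples, and its part in the Eif2ak1 differences was not tested.

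For Eif2ak2 (PKR, activated by double-stranded RNA) the signal was 12.09 and 12.10 in STZ+MENS, 12.01 and 12.04 in STZ and 11.52 and 11.93 in Control. It was above Control by 0.37 ± 0.17 in STZ+MENS and by 0.30 ± 0.17 in STZ, with unadjusted p of 0.0735 and 0.134. Eif2ak4 (GCN2, which senses uncharged tRNA) had 11.14 and 10.78 in STZ+MENS, 10.28 and 10.81 in STZ and 10.99 and 10.93 in Control. STZ sample 1 was the lowest there, and no difference had an unadjusted p under 0.05.

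**Figure D2:**
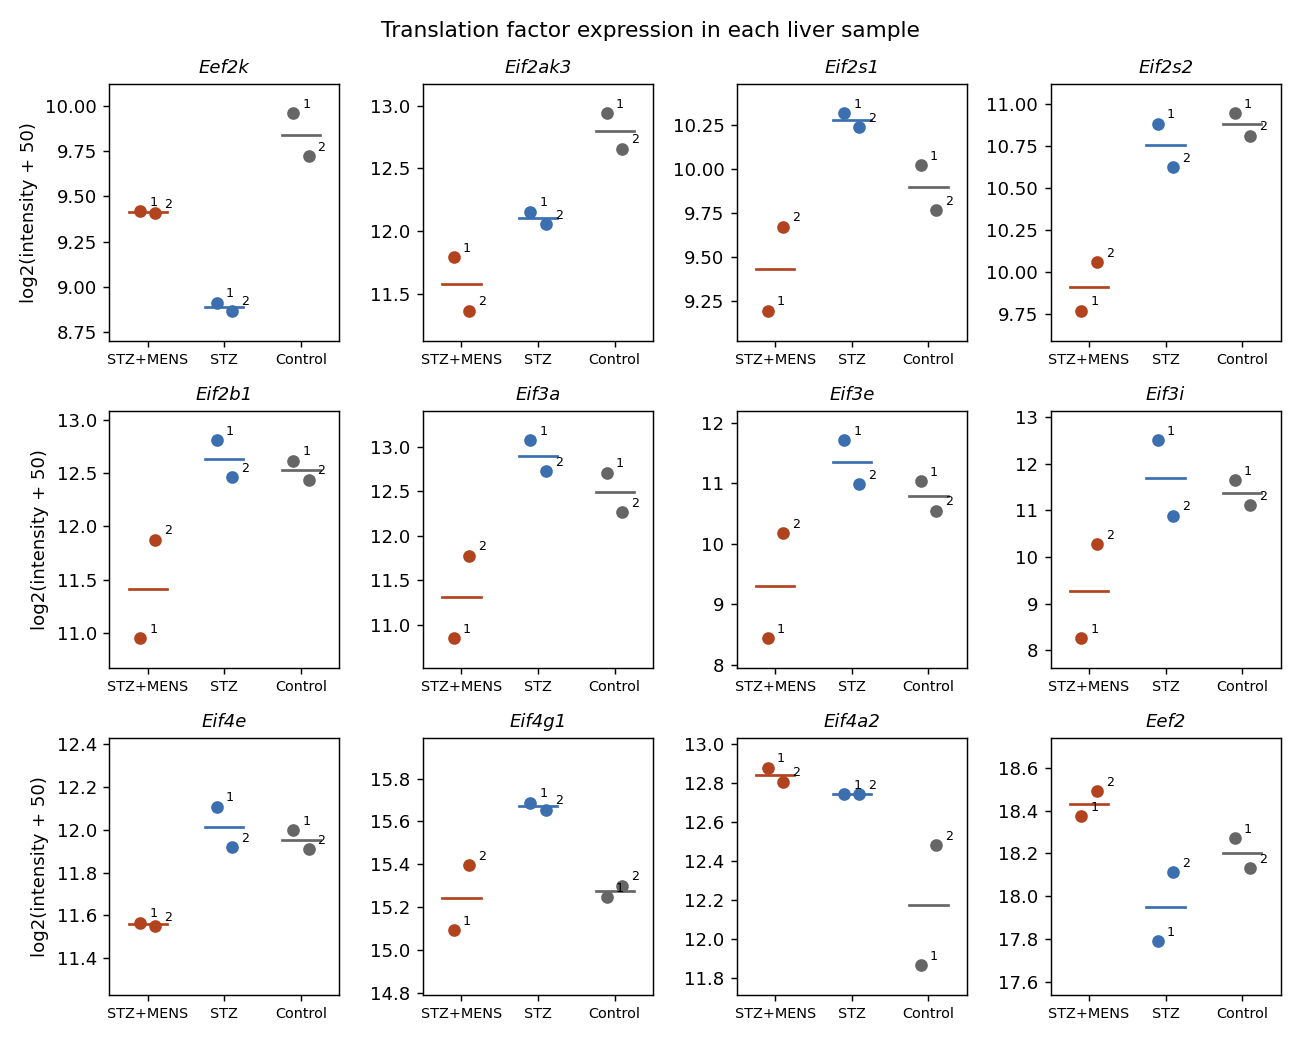
Log2(intensity + 50) of 12 members in the 6 liver samples: each point is 1 sample (numbered 1 or 2, mean of 2 arrays), each line the group mean, with STZ+MENS, STZ and Control from left to right and a vertical axis of its own for each gene. Eef2k is lowest in both STZ samples, Eif2ak3 descends in steps, and Eif2s2, Eif2b1, Eif3a, Eif3e, Eif3i and Eif4e have both STZ+MENS samples below all others.

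The subunits of eIF3 split within 1 complex. Eif3a, Eif3e and Eif3i were lower in STZ+MENS than in STZ and Control at an unadjusted p under 0.05, Eif3b and Eif3l were low in STZ+MENS sample 1 alone, and Eif3c, Eif3d, Eif3g, Eif3h, Eif3k and Eif3m were not lower than STZ or Control at that p, while Eif3f was lower than Control. Of 12 subunits, 1 was higher (12.6% of all genes) and 3 lower (12.8%) than STZ at an unadjusted p under 0.05, and 0 were higher (8.82%) and 4 lower (9.18%) than Control. The median was -0.21 against STZ and -0.37 against Control, and 0.06 for STZ against Control.

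Eif3a encodes the largest scaffold subunit. Its log2 signal was 10.85 and 11.77 in STZ+MENS, 13.07 and 12.73 in STZ and 12.71 and 12.27 in Control. All STZ+MENS values were below all others, sample 1 by the wider margin. The difference was -1.59 ± 0.33 against STZ, a 3.01-fold lower signal (unadjusted p = 0.00285, adjusted p = 0.0695), and -1.18 ± 0.33 against Control (adjusted p = 0.165). With sample 1 of STZ+MENS left out it was -1.13 ± 0.26 against STZ (unadjusted p = 0.0058) and -0.72 ± 0.26 against Control (unadjusted p = 0.036). The 2 arrays of a sample differed by at most 0.14.

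Eif3e, a subunit with a PCI domain, had 8.44 and 10.17 in STZ+MENS, 11.71 and 10.98 in STZ and 11.03 and 10.55 in Control. STZ+MENS was again below all others, but sample 1 was lower than sample 2 by a log2 difference of -1.73. The difference was -2.04 ± 0.57 against STZ, a 4.12-fold lower signal (adjusted p = 0.103), and -1.49 ± 0.57 against Control (adjusted p = 0.250). Leaving out STZ+MENS sample 1 gave -1.18 ± 0.36 against STZ (unadjusted p = 0.0178) and -0.62 ± 0.36 against Control (unadjusted p = 0.136), and leaving out sample 2 gave -2.35 ± 0.36 against Control.

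Eif3i, a WD-repeat subunit bound to eIF3b, had the largest difference of the 60 members and also the largest spread. Its signal was 8.26 and 10.28 in STZ+MENS, 12.50 and 10.89 in STZ and 11.65 and 11.12 in Control. The STZ+MENS samples were 2.02 apart and the STZ samples 1.62 apart, more than the gap between STZ+MENS sample 2 and STZ sample 2. The difference was -2.42 ± 0.76 against STZ (unadjusted p = 0.0182, adjusted p = 0.125) and -2.11 ± 0.76 against Control (adjusted p = 0.231). Without STZ+MENS sample 1 it was -1.41 ± 0.64 against STZ (unadjusted p = 0.0712), where it was -1.62 ± 0.80 without STZ sample 1, and -1.10 ± 0.64 against Control (unadjusted p = 0.14).

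Eif3b, the RNA-binding partner of Eif3i in the complex, had 12.11 and 13.54 in STZ+MENS, 13.66 and 13.70 in STZ and 13.93 and 13.54 in Control. STZ+MENS sample 2 had the level of Control sample 2, so the difference of -0.85 ± 0.44 against STZ (unadjusted p = 0.0990) rested on sample 1 and was -0.14 ± 0.22 without it. Eif3l had the same form, with 11.26 and 12.67 in STZ+MENS, 13.09 and 12.87 in STZ and 13.04 and 12.62 in Control. Its difference from STZ was -1.01 ± 0.44 (unadjusted p = 0.0599) and -0.31 ± 0.24 without STZ+MENS sample 1.

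Eif3f, an MPN-domain subunit, was below Control in STZ+MENS and in STZ. It had 15.31 and 15.72 in STZ+MENS, 15.50 and 15.70 in STZ and 16.09 and 16.05 in Control. The difference from Control was -0.56 ± 0.18 in STZ+MENS (adjusted p = 0.201) and -0.47 ± 0.18 in STZ (adjusted p = 0.270), while STZ+MENS and STZ overlapped. With STZ+MENS sample 1 left out, the difference of STZ+MENS from Control was -0.36 ± 0.18 (unadjusted p = 0.0995). Eif3h, the other MPN-domain subunit, was the 1 subunit above STZ at an unadjusted p under 0.05, with 14.87 and 14.67 in STZ+MENS, 14.16 and 14.37 in STZ and 14.49 and 14.28 in Control. Its difference from STZ was 0.50 ± 0.16 (adjusted p = 0.132). For Eif3c, Eif3g and Eif3k the differences from STZ were between 0.15 and 0.28, and for Eif3d and Eif3m they were -0.20 and -0.22, each with an SE of 0.14 to 0.17.

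**Figure D3:**
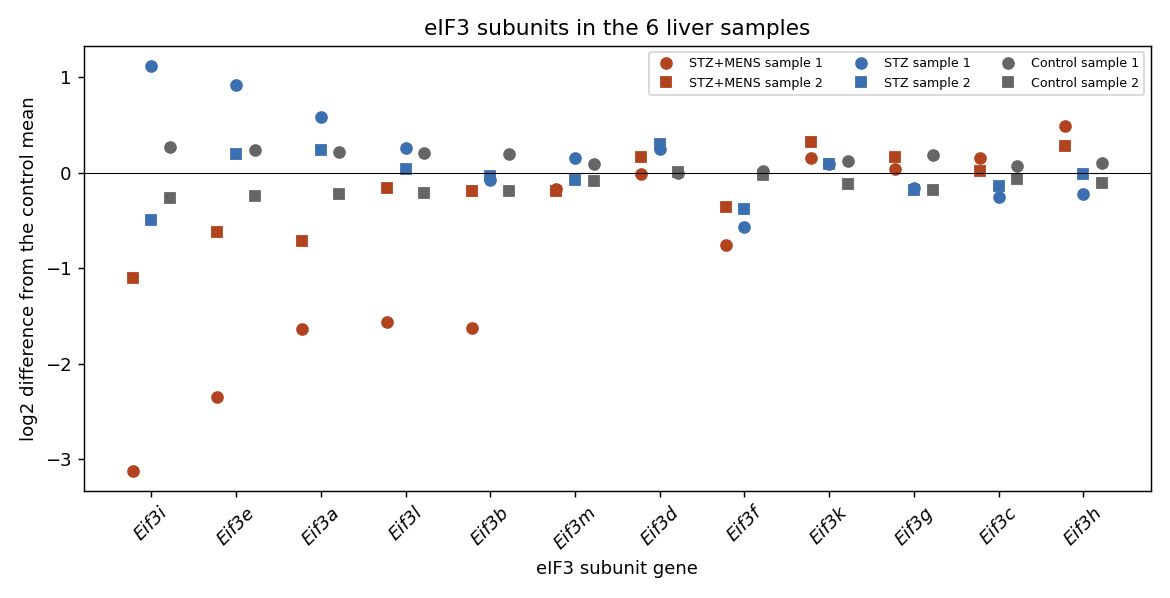
Log2 difference of each liver sample from the Control mean for the 12 eIF3 subunit genes, ordered by the STZ+MENS difference: circles are sample 1 and squares sample 2. STZ+MENS sample 1 is at -1.57 or lower for Eif3i, Eif3e, Eif3a, Eif3l and Eif3b, where the points of both STZ+MENS samples spread widely, and at -0.76 or higher for the other 7.

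In the cap-binding group, the genes of eIF4F differed by paralog. Eif4e encodes the cap-binding protein itself and had 11.57 and 11.55 in STZ+MENS, 12.11 and 11.92 in STZ and 11.997 and 11.91 in Control. Both STZ+MENS samples lay below all others and close together. The difference was -0.45 ± 0.14 against STZ (unadjusted p = 0.0175, adjusted p = 0.123) and -0.40 ± 0.14 against Control (adjusted p = 0.228), and against STZ it was -0.46 without STZ+MENS sample 1 and -0.45 without sample 2.

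Eif4g1, the main eIF4G scaffold, was highest in STZ. It had 15.09 and 15.39 in STZ+MENS, 15.69 and 15.66 in STZ and 15.25 and 15.30 in Control. STZ lay above both other groups, which overlapped. STZ differed from Control by 0.40 ± 0.16 (unadjusted p = 0.0413) and STZ+MENS from STZ by -0.43 ± 0.16 (unadjusted p = 0.0319), or by -0.28 ± 0.17 without STZ+MENS sample 1 (unadjusted p = 0.152). Eif4g3, its paralog, differed by -0.47 ± 0.24 for STZ+MENS against STZ (unadjusted p = 0.0931), with overlapping samples.

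Eif4g2 (DAP5), which lacks the eIF4E-binding site and serves cap-independent initiation, went the other way. Its signal was 12.52 and 12.21 in STZ+MENS, 11.98 and 11.71 in STZ and 11.23 and 11.72 in Control. STZ+MENS was above both other groups, by 0.89 ± 0.22 against Control (1.85-fold, unadjusted p = 0.00649, adjusted p = 0.139) and by 0.52 ± 0.22 against STZ (unadjusted p = 0.0569). The 2 arrays of STZ+MENS sample 2 differed by 1.99 for this probe, the widest gap of any member, and the other probe of the gene differed by -0.14 from Control.

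Of the helicases, Eif4a2 had 12.88 and 12.81 in STZ+MENS, 12.75 and 12.74 in STZ and 11.87 and 12.48 in Control. Control was lowest, and its samples were the ones that spread. The difference from Control was 0.67 ± 0.22 in STZ+MENS (adjusted p = 0.202) and 0.57 ± 0.22 in STZ (adjusted p = 0.270). Without Control sample 1 these were 0.36 ± 0.17 and 0.26 ± 0.17 (unadjusted p = 0.0894 and 0.188), and for STZ it was 0.88 ± 0.17 without Control sample 2 (unadjusted p = 0.00396). The other probe of Eif4a2 was dim (mean intensity 59.4275) and differed from Control by -0.18 in STZ+MENS and 0.14 in STZ. Eif4a1, the more general form, had 15.12 and 15.83 in STZ+MENS, 15.52 and 15.89 in STZ and 16.03 and 15.60 in Control, with overlap throughout. Eif4b, a cofactor of the helicase, had 13.39 and 14.01 in STZ+MENS, 13.90 and 14.01 in STZ and 14.50 and 14.36 in Control. Both other groups were below Control, at -0.73 ± 0.22 for STZ+MENS (adjusted p = 0.185) and -0.48 ± 0.22 for STZ (unadjusted p = 0.0771), while STZ+MENS differed from Control by -0.42 ± 0.18 (unadjusted p = 0.0593) without its sample 1 and by 0.06 on the other probe of the gene. Eif4h, a related cofactor, differed by -0.21 ± 0.15 and -0.07 ± 0.15.

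The relatives of Eif4e had patterns of their own. Eif4e2 (4EHP), a cap-binding repressor, had 12.66 and 13.79 in STZ+MENS, 14.21 and 13.92 in STZ and 14.25 and 14.27 in Control. STZ+MENS was below both, chiefly in sample 1, and differed from Control by -1.03 ± 0.35 (adjusted p = 0.216) and by -0.47 ± 0.20 without that sample (unadjusted p = 0.0560), or -1.60 ± 0.20 without sample 2. Eif4e3 had 11.45 and 11.20 in STZ+MENS, 11.10 and 11.22 in STZ and 11.52 and 11.83 in Control, and STZ differed from Control by -0.52 ± 0.17 (adjusted p = 0.226). Eif4e1b, known from oocytes and dim here, had 7.82 and 7.85 in STZ+MENS, 7.38 and 7.48 in STZ and 7.71 and 7.90 in Control. STZ was lowest, at -0.37 ± 0.14 against Control and with STZ+MENS 0.40 ± 0.14 above it (unadjusted p = 0.0387 and 0.0295). On the other probe of the gene, which was dimmer still, the same differences were 0.05 and 0.0013.

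None of the 4 eIF4E-binding genes reached an unadjusted p under 0.05. Eif4ebp1, the best known mTORC1 target among them, had 13.60 and 13.78 in STZ+MENS, 13.24 and 13.55 in STZ and 14.00 and 13.66 in Control. STZ was below Control, at -0.43 ± 0.19 (unadjusted p = 0.0625), and STZ+MENS above STZ by 0.29 ± 0.19 (unadjusted p = 0.172). Eif4ebp2 had 12.23 and 12.67 in STZ+MENS, 12.09 and 13.43 in STZ and 12.18 and 12.23 in Control, so its high value was in STZ sample 2 alone, and both of its probes showed it. Eif4ebp3 had 13.68 and 14.20 in STZ+MENS, 14.15 and 14.04 in STZ and 14.01 and 14.66 in Control, with overlap in every comparison. Eif4enif1, the eIF4E transporter, differed by 0.31 ± 0.14 for STZ against Control (unadjusted p = 0.0737).

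**Figure D4:**
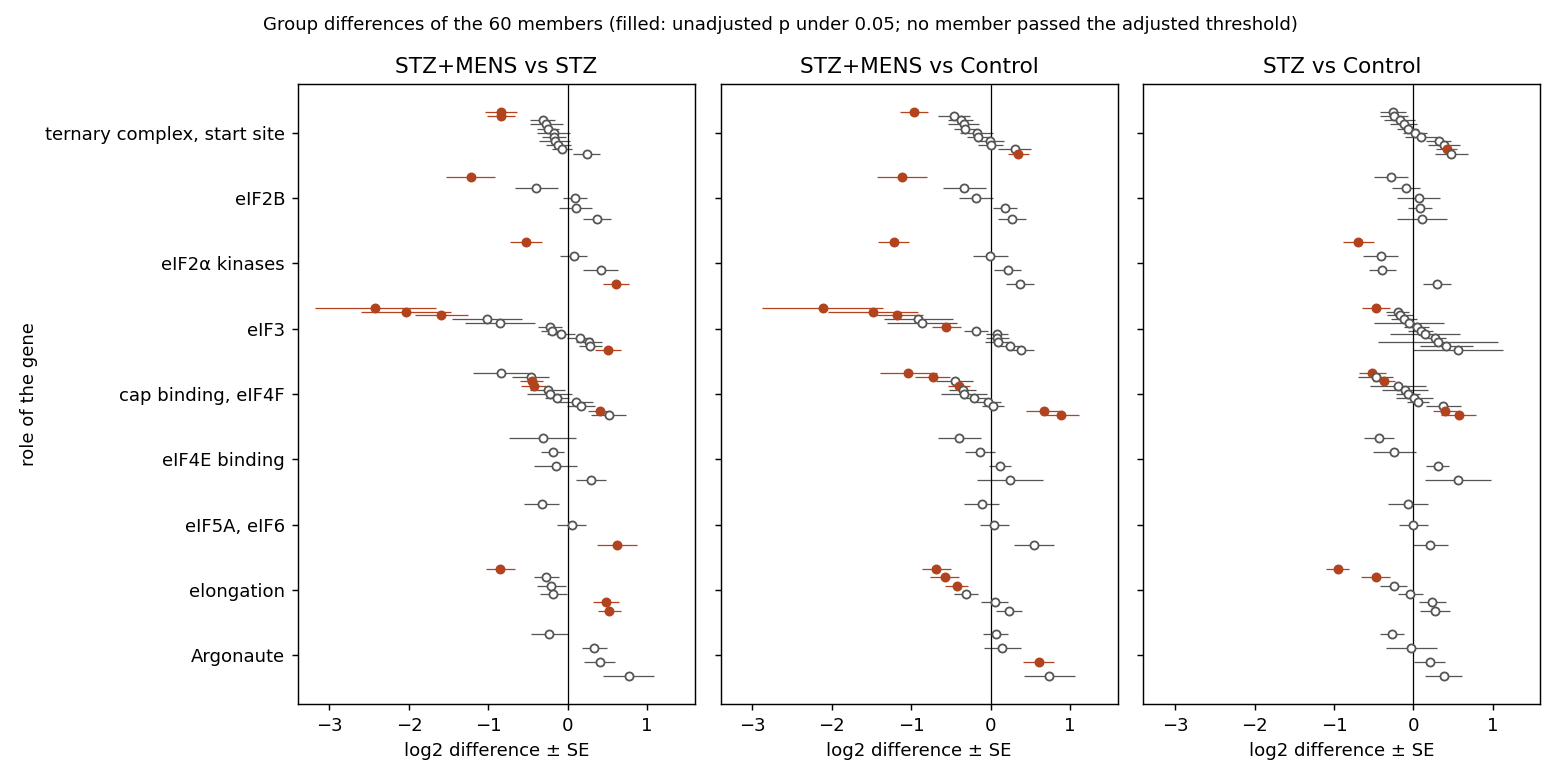
Log2 differences ± SE of the 60 members by role in the 3 comparisons (2 samples per group), with filled points for an unadjusted p under 0.05; no member passed the adjusted threshold. The widest spread below 0 is in eIF3 for STZ+MENS against STZ and against Control, while STZ against Control keeps within -0.95 and 0.57.

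Eif5a, whose protein carries hypusine and eases the ribosome over proline stretches, gave different answers by probe. The brightest probe had 16.31 and 16.74 in STZ+MENS, 16.54 and 16.41 in STZ and 16.47 and 16.49 in Control, a difference of 0.05 ± 0.18 for STZ+MENS against STZ. The second probe had 11.43 and 13.20 in STZ+MENS, 13.97 and 13.34 in STZ and 13.70 and 13.45 in Control. The dimmest had 11.33 and 13.07 in STZ+MENS, 13.78 and 13.18 in STZ and 13.51 and 13.10 in Control. These 2 probes differed by -1.34 and -1.28 between STZ+MENS and STZ, again with the low value in STZ+MENS sample 1, and which probe follows the transcript was not tested.

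The paralog Eif5a2 had 11.54 and 11.06 in STZ+MENS, 10.52 and 10.82 in STZ and 10.49 and 10.997 in Control. STZ+MENS was above both other groups, by 0.62 ± 0.25 against STZ (unadjusted p = 0.0460) and 0.55 ± 0.25 against Control (unadjusted p = 0.0690), which became 0.38 ± 0.27 and 0.31 ± 0.27 without STZ+MENS sample 1 (unadjusted p = 0.207 and 0.296). Eif6, which keeps the large ribosomal subunit from joining too early, had 14.29 and 14.93 in STZ+MENS, 14.94 and 14.93 in STZ and 14.75 and 14.69 in Control. Only STZ+MENS sample 1 was low, and no comparison had an unadjusted p under 0.05.

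Among the elongation genes, the kinase of eEF2 had the smallest p of the 60 members in any comparison. Eef2k had 9.42 and 9.41 in STZ+MENS, 8.91 and 8.87 in STZ and 9.96 and 9.72 in Control. The 3 groups did not overlap, with STZ lowest and STZ+MENS between. STZ was below Control, at -0.95 ± 0.15, a 1.93-fold lower signal (unadjusted p = 0.000535, adjusted p = 0.0935). STZ+MENS was above STZ by 0.52 ± 0.15 (adjusted p = 0.104) and below Control, at -0.43 ± 0.15 (adjusted p = 0.213). The 2 STZ+MENS samples gave nearly the same value, so leaving out either gave 0.52 or 0.53 against STZ.

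Eef2, the target of that kinase, had 18.37 and 18.49 in STZ+MENS, 17.79 and 18.11 in STZ and 18.27 and 18.13 in Control. STZ was again lowest and STZ+MENS highest. STZ+MENS was above STZ by 0.48 ± 0.17 (1.40-fold, adjusted p = 0.147), or by 0.32 ± 0.20 without STZ sample 1 (unadjusted p = 0.159), and STZ differed from Control by -0.25 ± 0.17 (unadjusted p = 0.182).

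The exchange factor of eEF1A was measured through Eef1b2 and Eef1d, both dim. Eef1d had 7.34 and 7.35 in STZ+MENS, 7.69 and 7.41 in STZ and 8.20 and 7.84 in Control. Both other groups were below Control, at -0.68 ± 0.18 for STZ+MENS (adjusted p = 0.153) and -0.47 ± 0.18 for STZ (adjusted p = 0.270), the second being -0.29 ± 0.20 without Control sample 1 (unadjusted p = 0.205). Eef1b2 differed by -0.31 ± 0.16 for STZ+MENS against Control (unadjusted p = 0.0934) and -0.04 ± 0.16 for STZ. Eef1e1 encodes an accessory protein of the aminoacyl-tRNA synthetase complex rather than an elongation factor, and had 10.29 and 10.61 in STZ+MENS, 11.42 and 11.17 in STZ and 11.15 and 10.90 in Control. STZ+MENS was below all others, at -0.85 ± 0.19 against STZ (adjusted p = 0.0729) and -0.58 ± 0.19 against Control (adjusted p = 0.199). Eef1a2 had 6.17 and 6.36 in STZ+MENS, 6.62 and 6.28 in STZ and 6.21 and 6.21 in Control, close to the floor set by the offset.

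The Argonaute genes, counted here by their older names, did not share the lower values. For STZ+MENS against STZ their median was 0.37, with 3 of 4 positive. Ago4 had 9.43 and 9.04 in STZ+MENS, 8.79 and 8.87 in STZ and 8.46 and 8.79 in Control. STZ+MENS was highest, 0.61 ± 0.20 above Control (adjusted p = 0.199). Ago3 differed by 0.77 ± 0.32 for STZ+MENS against STZ (unadjusted p = 0.0524), with the arrays of STZ+MENS sample 2 lying 1.61 apart, while Ago1 and Ago2 differed by 0.33 ± 0.16 and -0.23 ± 0.24. Over the 56 members without the Argonautes, 9 had an unadjusted p under 0.05 for STZ against Control (16.1%, beside 17% of all genes). There were 16 for STZ+MENS against STZ (28.6%, beside 25.4%) and 16 for STZ+MENS against Control (28.6%, beside 18%).

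Probes of 1 gene often disagreed. Of the 11 members with several probes, the probes had opposite signs for 5 in STZ against Control, 6 in STZ+MENS against STZ and 8 in STZ+MENS against Control. The range between probes was over 1 for 0, 3 and 4 of these genes. For Eif2d, a noncanonical initiator-tRNA factor, the range was 1.59 in STZ+MENS against STZ, where its middle probe had 10.20 and 11.90 in STZ+MENS, 12.47 and 12.57 in STZ and 12.05 and 11.87 in Control. Eif4e2 differed by -0.84 by its brightest probe and by 0.44 by its other, and Eif4b by -0.25 and 0.64. A difference read from 1 probe, as for 49 of the members, has no such check.

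**Figure D5:**
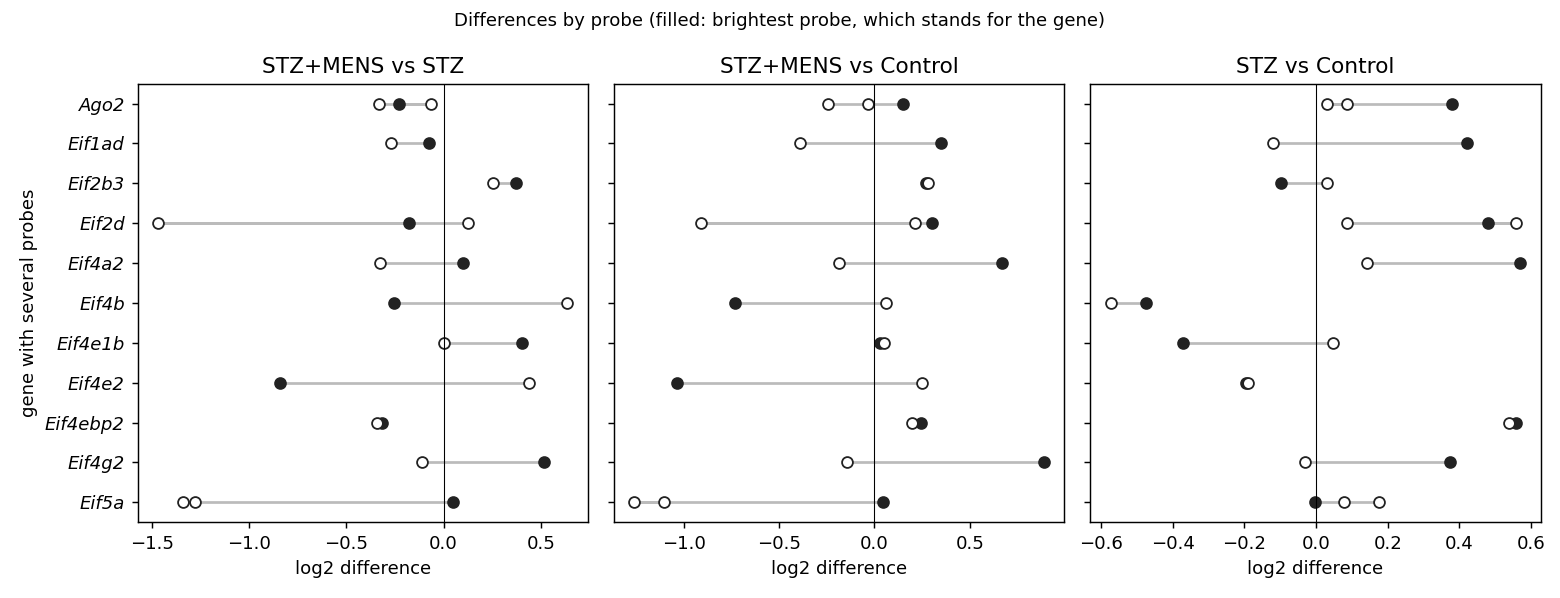
Log2 differences of every probe of the 11 members with several probes, in the 3 comparisons: filled circles are the brightest probe, which stands for the gene, open circles the others, joined by a line per gene. Long lines that cross 0 show disagreement, as for Eif4e2 and Eif4b in STZ+MENS against STZ and Eif4g2 in STZ+MENS against Control.

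Other genes of the pathway were counted from a list that had been set down for signalling, stress response, initiation, termination and mitochondrial translation, of which 57 of 60 were measured. None passed the adjusted threshold in any comparison. At an unadjusted p under 0.05, 8 were higher (8.48% of all genes) and 1 lower (8.49%) for STZ against Control. There were 7 higher (12.6% of all genes) and 18 lower (12.8%) for STZ+MENS against STZ, and 4 higher (8.82%) and 8 lower (9.18%) for STZ+MENS against Control. The medians were 0.07, -0.19 and -0.09 in that order, beside -0.02, 0.06 and 0.02 over all genes. The genes named next were chosen after their values were seen.

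The integrated stress response is the program that eIF2 phosphorylation starts. Of its 11 genes, 1 was higher (8.48% of all genes) and 1 lower (8.49%) for STZ against Control at an unadjusted p under 0.05. For STZ+MENS against STZ 1 was higher (12.6%) and 3 lower (12.8%). Ddit3, Asns and Atf3 differed by -0.05 ± 0.25, -0.18 ± 1.36 and 0.09 ± 0.31 for STZ against Control. Atf4, the central transcription factor, had 16.76 and 16.53 in STZ+MENS, 16.46 and 16.61 in STZ and 16.76 and 16.55 in Control. The groups overlapped. Trib3, a pseudokinase induced by ATF4, had 13.41 and 14.12 in STZ+MENS, 14.59 and 14.00 in STZ and 10.85 and 12.41 in Control. STZ was 2.66 ± 0.53 above Control (adjusted p = 0.125) and STZ+MENS 2.13 ± 0.53 above it (adjusted p = 0.139). Chac1, another target of ATF4, went the other way in STZ, with 12.77 and 12.30 in STZ+MENS, 11.57 and 11.79 in STZ and 12.47 and 12.98 in Control. Its difference was -1.04 ± 0.24 for STZ against Control (adjusted p = 0.146) and 0.85 ± 0.24 for STZ+MENS against STZ (adjusted p = 0.108).

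Of 12 other initiation and mRNA-binding genes, 5 were lower (12.8% of all genes) and 0 higher (12.6%) in STZ+MENS than in STZ at an unadjusted p under 0.05. Abce1, which recycles ribosomes, had 12.66 and 12.93 in STZ+MENS, 13.73 and 13.67 in STZ and 13.50 and 13.27 in Control, and was below STZ, at -0.90 ± 0.16 (adjusted p = 0.0595). Dhx29, a helicase for structured leaders that binds the small subunit beside eIF3, had 9.02 and 9.92 in STZ+MENS, 11.27 and 10.71 in STZ and 10.83 and 10.51 in Control, and was below STZ, at -1.51 ± 0.34 (adjusted p = 0.0739). In both genes the STZ+MENS samples lay below all others, sample 1 the lower. Of 10 genes of termination, rescue and other elongation, 1 was higher (12.6% of all genes) in STZ+MENS than in STZ at an unadjusted p under 0.05, and 5 were lower (12.8%). Of the 9 mitochondrial factors, 1 was higher (12.6%) and 2 lower (12.8%) in that comparison at the same threshold. The lower were Gfm1, the elongation factor G, at -1.90 ± 0.43 (adjusted p = 0.0764) and Mtrf1, a release factor, at -0.83 ± 0.14 (adjusted p = 0.0595). Mtif3 was higher, at 1.18 ± 0.33 (adjusted p = 0.103).

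In mTORC1 signalling, 4 genes of 13 measured were higher (12.6% of all genes) and 3 lower (12.8%) in STZ+MENS than in STZ at an unadjusted p under 0.05. Mtor, the kinase, had 11.59 and 12.23 in STZ+MENS, 12.78 and 12.55 in STZ and 12.88 and 12.35 in Control, and was below STZ, at -0.75 ± 0.28 (unadjusted p = 0.0337). Larp1, which represses mRNAs of the translation machinery, differed by -1.29 ± 0.39 (adjusted p = 0.120). On the other side Tsc1, an inhibitor of the pathway, differed by 0.57 ± 0.14 (adjusted p = 0.0886) and Rptor, the mTORC1 scaffold, by 0.55 ± 0.16 (adjusted p = 0.108). The list thus held differences of both signs, with a median of -0.05 against STZ.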

How the data were processed

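Liver RNA was measured on 12 single-colour arrays (Phalanx Mouse OneArray, version 2) with Cy5-labelled aRNA, per the labels' protocols. Each deposited value is a linear probe intensity that the authors had already normalized: the 12 arrays had nearly equal distributions, and 44 to 52 of 26423 probes per array were below 0. How background and normalization were handled is not given in the sources used here. The submitters' processing notes list limma 3.30.7 but not what it did. The deposited table was kept as it stands, with 0 columns left unmapped.

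Probes were named from the platform annotation, and symbols were updated through a RefSeq table of GRCm38.p6: of 20377 named probes, 18213 were current, 2126 matched through a synonym and 38 stayed as the platform gives them. Negative values were raised to 0 and log2 was taken after adding 50, so differences of dim genes are understated. The brightest probe stood for a gene. Array pairs of a sample were averaged, and group means were fitted in 1 model over 17742 genes in 6 samples with limma 3.58.1 (lmFit, eBayes; two-sided; R 4.3.3), with 3 residual and 3.19 prior degrees of freedom. P was adjusted by Benjamini-Hochberg over all genes (threshold 0.05). Exact permutation of 2 against 2 samples, which cannot give p under 0.333, was not used. The number of liver samples, 2 per group, limits the precision.

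The members and lists were chosen with earlier results of these data known. Values in every sample were given for up to 6 members per direction and comparison. These had an unadjusted p under 0.05 and no overlap, taken by smallest p. Such values were also given for a fixed panel of regulators, except Eif5 (a difference alone) and Eef1a1, which was not among the 60 members. Members outside this rule whose sample values are also given (Eif2s3x, Eif3b, Eif3i, Eif3l, Eif4e2 and the further probes) were chosen after their values were seen. Same-numbered samples of different groups, with the sample number 1 or 2 as the labels' source names give it (their titles carry other numbers), were not paired: their deviations correlated at -0.03, 0.01 and -0.07. The numbers of the arrays did not pair them either, with correlations from -0.23 to 0.34 over 15 pairs of samples. Alternatives covered the offset, a filter on dim genes, normalization, probe choice, arrays as units and leaving out each sample. Plots were drawn with matplotlib 3.10.9 in Python 3.11.15.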

Additional observations from a re-analysis of the deposited data

How the results depend on the processing

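For the calls and the median of the members, leaving out each liver sample in turn gave these ranges. Members called ranged from 0 to 10 for STZ+MENS against STZ, the 10 (16.7%) without STZ+MENS sample 2, where 9.91% of all genes were called, and stayed at 0 in the other comparisons. Members at an unadjusted p under 0.05 ranged from 3 to 12 for STZ against Control, 8 to 23 for STZ+MENS against STZ and 5 to 23 for STZ+MENS against Control. For STZ against Control the count over all genes also changed as a sample was left out, so these counts do not describe the members alone. The members' median ranged from -0.211 to 0.0043 for STZ+MENS against STZ and from -0.171 to -0.062 for STZ+MENS against Control. With the 12 arrays as units and the sample as a random block, 1 member was called for STZ against Control (Eef2k; 1.67%, beside 6.79% of all genes), 11 for STZ+MENS against STZ (18.3%, beside 17.4%) and 9 for STZ+MENS against Control (15%, beside 7.53%), and 15 and 26 had an unadjusted p under 0.05 for STZ and STZ+MENS against Control. Adding the array number as a replicate block gave 1, 10 and 6 called members in the same order (1.67%, 16.7% and 10%, beside 5.77%, 15.4% and 5.92% of all genes), and 14 and 27 at an unadjusted p for the same 2 comparisons. Those fits count 12 arrays of 6 samples as units. For STZ against Control, 3831 and 3688 of all 17742 genes had an unadjusted p under 0.05 in these 2 fits. Eif2s2, Eif2b1 and Eif3a were called in both of them for STZ+MENS against STZ and against Control. With the sample number as a replicate block, 0 members were called in each comparison, which changed no call. For STZ against Control 7 members had an unadjusted p under 0.05, beside 2734 of all 17742 genes. Array 1 of each sample alone gave 4 members at an unadjusted p for STZ against Control (2470 of all 17742 genes). Array 2 alone gave fewer members than both arrays did for STZ+MENS against STZ, which was not read against all genes. Under the other alternatives (offsets of 16 and 200, genes with a mean intensity of 100 or more, a further quantile normalization, the mean of all probes, only the groups compared, no genes with arrays over 3 apart, an intensity trend, and, chosen after seeing the data, no Argonautes) every count stayed within 1.5 times its value and every median moved by less than the spread between samples. With the mean of all probes, Eif1ad differed by -0.0215 for STZ+MENS against Control, the 1 reversal among the members with sample values, as its probes disagree. With 2 samples per group and no detection flags used here, small differences and the floor of dim probes were not resolved.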
